A study of Mus musculus with 7 samples.

Results

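Imprinted genes were examined in RNA-Seq libraries of fetal mouse testis. A list of 40 imprinted genes was matched by symbol to the RefSeq gene table of the series, and all 40 were found among its 24739 genes. By textbook knowledge, 17 of them are expressed from the maternal and 23 from the paternal chromosome. They lie on 11 chromosomes, with 16 on chromosome 7 and 6 on chromosome 6, and 28 of the 40 belong to 8 domains that each hold members of both kinds. The libraries came from whole testes at E14.5 on a C57BL/6 background, with 1 pair of testes from 1 embryo per library. Of the 7 libraries, 3 were labelled wild-type (WT) and 4 came from *Glis3* mutant embryos homozygous for the *Glis3* zf5 allele. Throughout the animal, this allele lacks exon 4 together with part of the intron on each side of it, which disrupts DNA binding by the zinc finger protein GLIS3.

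Imprinted genes are transcribed mostly from a single parental chromosome, under the control of DNA methylation that the egg or the sperm laid down. Many act on fetal growth, with paternally expressed genes such as *Igf2* tending to promote it and maternally expressed genes such as *Igf2r*, *H19*, *Cdkn1c* and *Grb10* tending to restrain it. Fetal germ cells erase these marks and male germ cells later write new, paternal ones, whereas the somatic cells of the testis keep them. The embryos were of an inbred background and FPKM (a fragment count corrected for gene length and for depth) counts both alleles together, so parental origin was not measured here. Several members are known to be imprinted only in certain tissues or transcripts, among them *Ube3a* in neurons, *Slc22a3* and *Dcn* in placenta, and single transcripts of *Gnas*, *Grb10* and *Inpp5f*.

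The level of *Glis3* was set beside the labels. The zf5 allele lacks only exon 4 and flanking intron, so FPKM of the whole gene does not give the genotype. The *Glis3* level was 7.63, 6.89 and 2.91 FPKM across the WT libraries in order of replicate and 3.86, 3.26, 2.9 and 2.66 FPKM across the mutant ones (exact permutation test, p = 0.114). The library labelled WT replicate 3 lay within the range of the mutants, so values are given with and without it. FPKM values summed to between 694243 and 1018678 per library, and the number of fragments behind each value is unknown. Reads in repeats, used as a second readout, numbered from 3454317 to 4670830 per library. Markers of cell types also differed between the groups. All 13 germ cell markers had lower values in the mutant group (median log2 fold change -1.03), and their summed FPKM was 648 to 1554 in the libraries labelled WT and 522 to 714 in the mutant libraries. All 9 fetal Leydig cell markers had higher values (median 0.43), with sums of 1811 to 2920.4 and 2807 to 3404 FPKM. All 8 interstitial cell markers did so too (median 0.28), with sums of 1179.9 to 1349.8 and 1367 to 1689 FPKM. Of the Sertoli cell markers, 7 of 8 were higher (median 0.20), with sums of 999 to 1246 and 1208 to 1393 FPKM. All 8 macrophage markers (median 0.25), all 7 tested skeletal muscle markers (0.59) and all 4 tested adrenal cortex markers (0.40) were higher too. Sums are over all listed markers, tested or not. They were 37.7 to 47.6 and 46.9 to 63.9 FPKM for macrophages and 16.2 to 26.5 and 24.5 to 33.7 for adrenal cortex. For skeletal muscle they were 5.88 to 44.3 and 6.05 to 66.8, a wide spread within both groups. Endothelial markers were split 4 and 4 (median -0.0021), erythroid markers 3 and 4 (-0.18) and the 3 tested mesonephric and duct markers 2 and 1 (0.037). Listed markers with 0 FPKM in at least 1 library included *Myod1*, *Pax2* and *Cyp11b2*. With 7 libraries, 0 listed markers were past the adjusted threshold of limma. At an unadjusted p under 0.05 there were 11 germ cell and 1 mesonephric marker lower, against 8.79% of all genes tested, and 7 fetal Leydig cell, 3 interstitial, 2 Sertoli cell, 2 macrophage and 2 adrenal cortex markers higher, against 8.21%. Without the library labelled WT replicate 3, 11 of 13 germ cell markers were past the adjusted threshold, all lower (median over the 13 of -1.38), against 3.99% of all genes tested, and 1 fetal Leydig cell and 1 Sertoli cell marker were past it, both higher, against 1.16%. In whole testis, fewer cells of a type and less RNA per cell cannot be told apart, and the part of these differences in the results below was not tested.

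Many of the 40 members, though not all, were among the abundant transcripts of the fetal testis. Mean FPKM over the 7 libraries was above 100 for 11 of the 40 members, between 10 and 100 for 17, between 0.5 and 10 for 8, and under 0.5 for 4. *H19*, a maternally expressed long non-coding RNA, stood far above the rest, with 1652 ± 219 (SD, n = 3) FPKM in the WT group and 1602 ± 82.8 (SD, n = 4) in the mutant group. *Gnas*, *Commd1*, *Mest*, *Dcn* and *Grb10* followed with group means from 152 to 287 FPKM. At the lower end, *Phlda2*, *Nap1l5*, *Slc22a3* and *Rasgrf1* stayed under the mean of 0.5 FPKM that was needed for a test. Of the 36 members tested, 28 lay above the median of all 13988 genes tested, which was 10.6 FPKM. The levels are set out by gene and library in the plot of all 40 members.

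**Figure D1:**
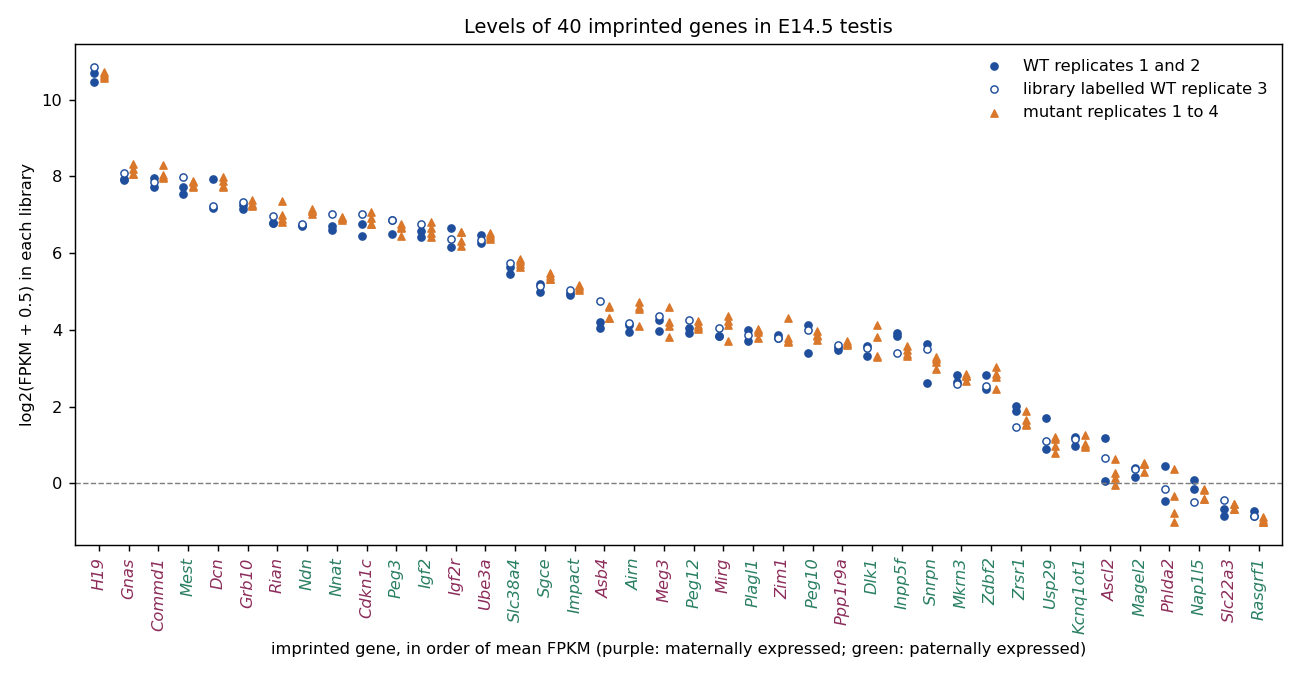
Log2(FPKM + 0.5) of each of the 40 imprinted genes in each of the 7 libraries, in order of mean FPKM. Filled circles are WT replicates 1 and 2, open circles the library labelled WT replicate 3 and triangles the 4 mutant libraries, and the dashed line marks the mean of 0.5 FPKM needed for a test. *H19* is highest, and for most genes the circles and triangles overlap.

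Estimated differences between mutant and WT testes in the imprinted genes were small, with wide intervals for some genes. Tests were made with limma on log2(FPKM + 0.5), a scale that understates the change of low genes, and p-values were adjusted over all 13988 genes tested. All 36 tested members had a log2 fold change (mutant minus WT) between -0.5 and 0.5, which held for 95.6% of all genes tested. Their log2 fold changes reached from -0.38 for *Ascl2* to 0.41 for *Airn*. With single libraries left out, the range was -0.67 to -0.11 for *Ascl2* (lowest without WT replicate 2, highest without WT replicate 1) and 0.34 to 0.54 for *Airn* (highest without mutant replicate 3). None of the 36 was past the adjusted threshold of 0.05, against 0% of all genes tested in the higher and 0.00715% (1 gene) in the lower direction. At an unadjusted p under 0.05 there were 4 members, *Ndn*, *Sgce*, *Airn* and *Commd1*, all higher in the mutants, against 8.21% of all genes tested, and none lower, against 8.79%. Mutant libraries all lay above the libraries labelled WT for 4 members, *Ndn*, *Sgce*, *Commd1* and *Ppp1r9a*, against 7.31% of all genes tested, and below them for none, against 7.59%. The share of members called higher, 4 of 36, was near that of all genes.

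Maternally and paternally expressed members leaned in the same direction. Of 15 maternally expressed members, 12 had higher and 3 lower values in the mutant group, and the median log2 fold change was 0.10. For 21 paternally expressed members the numbers were 15 and 6, with a median of 0.075. Over all genes tested, 7294 were higher and 6694 lower, with a median of 0.0084. The lean of 27 members against 9 toward higher values was smaller without WT replicate 2, in which 12 of the 36 members had their lowest value. Without that library it was 19 against 17, and the medians were 0.055 for maternally and -0.0045 for paternally expressed members. All genes tested moved the same way in that fit, with 6617 higher, 7371 lower and a median of -0.012. The median over the 36 members was 0.050 in that fit and 0.081 with all libraries. Quantile normalization gave 24 members higher against 12 lower. Mutant replicate 2 held the highest value of 14 members and the lowest of none, and WT replicate 1 held the lowest of 13.

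**Figure D2:**
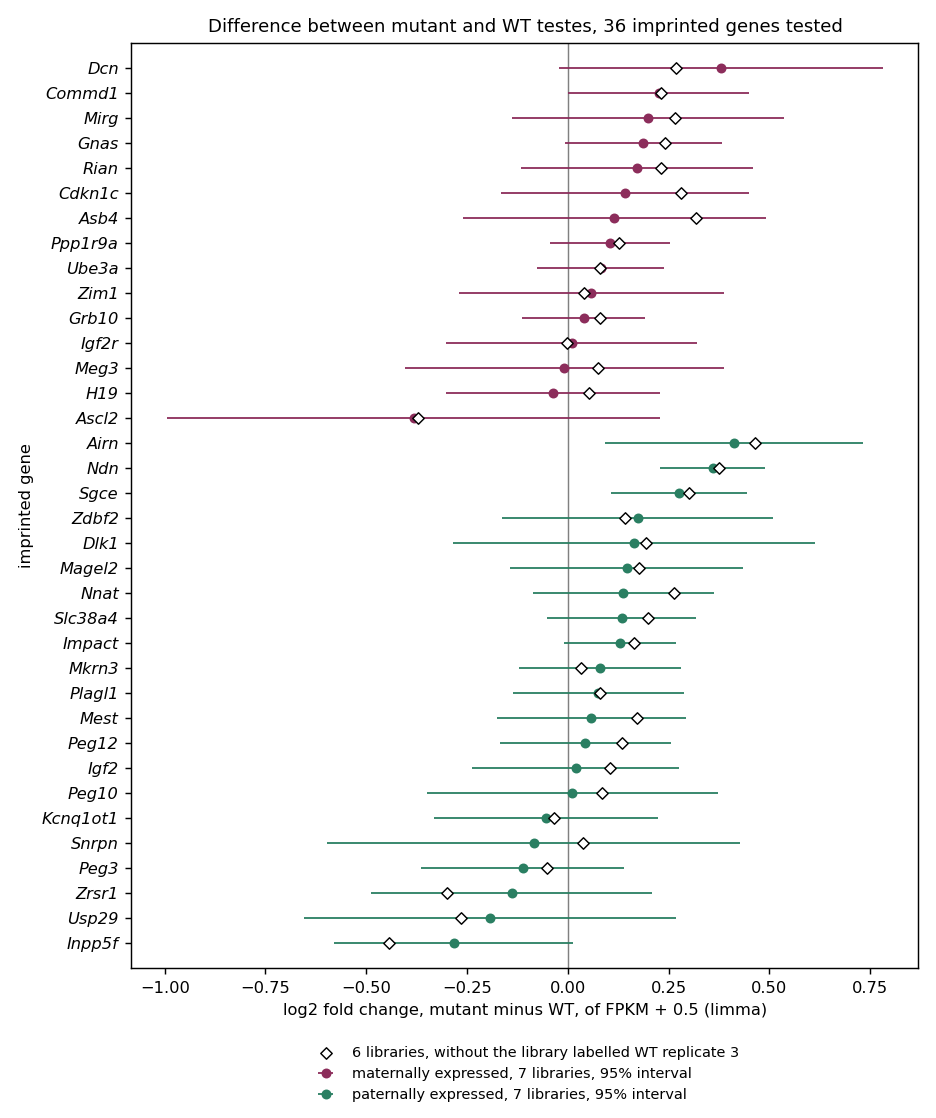
Log2 fold change, mutant minus WT, of FPKM + 0.5 for the 36 tested imprinted genes, maternally expressed genes above and paternally expressed genes below, with 95% intervals from limma over 7 libraries. Open diamonds give the value without the library labelled WT replicate 3. All points lie between -0.5 and 0.5, and the interval is farthest from 0 for *Ndn*.

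Without the library labelled WT replicate 3, in which *Glis3* was at the level of the mutants, more members were called, as were more genes overall. Of the 36 members, 1 was past the adjusted threshold in the higher direction (*Ndn*), against 1.16% of all genes tested, and 1 in the lower (*Inpp5f*), against 3.99%. At an unadjusted p under 0.05 there were 9 higher members, against 10.5% of all genes tested, and 1 lower, against 13.1%. The 9 were *Ndn*, *Sgce*, *Airn*, *Gnas*, *Impact*, *Slc38a4*, *Nnat*, *Cdkn1c* and *Asb4*. With 2 against 4 libraries, groups did not overlap for 12 higher members, against 15.6% of all genes tested, and 2 lower members, against 17.1%. The median log2 fold change was 0.13 for both maternally and paternally expressed members and 0.013 for all genes tested.

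*Ndn* showed the clearest separation of the groups among the 36 members. It encodes necdin, a protein of the MAGE family that restrains proliferation and is abundant in differentiating neurons, and it is a gene of the domain that is lost in Prader-Willi syndrome. It lies at chr7:62348277-62349927 (mm10, plus strand). FPKM was 104, 105 and 108 in the libraries labelled WT and 136, 141, 129 and 137 in the mutant libraries. The 3 WT values were close together, and each mutant value was above all of them. Means were 106 ± 2.31 (SD, n = 3) and 136 ± 5.37 (SD, n = 4) FPKM, a fold change of 1.28, and the pooled SD within groups, 0.049 on the log2 scale, was the lowest of the 36 members. The log2 fold change was 0.36 (95% interval 0.23 to 0.49), with an adjusted p of 0.112 from limma, and the exact permutation test gave p = 0.0286, the smallest possible with 3 against 4 libraries. Without the library labelled WT replicate 3 the log2 fold change was 0.38 (adjusted p = 0.022, limma). Over the alternatives run, the adjusted p of *Ndn* from limma ranged from 0.022 to 0.352. *Ndn* holds no repeat locus with reads in its body, so the second readout gave no value.

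The neighbours of *Ndn* in the same domain had smaller log2 fold changes, and differences between genes were not tested. The other paternally expressed members there, ordered by distance from *Ndn*, were *Magel2*, another MAGE gene that starts 28702 bases away, *Mkrn3*, a ring finger gene that restrains the onset of puberty (71862 bases), and *Peg12*, a gene related to the Wnt pathway protein FRAT (116233 bases). *Mkrn3* had 6.61, 5.77 and 5.57 FPKM in the libraries labelled WT and 6.66, 5.8, 6.46 and 6.45 in the mutant libraries, with a log2 fold change of 0.08 (95% interval -0.12 to 0.28). *Peg12* had 16, 14.6 and 18.6 (WT) and 15.7, 18.4, 17 and 16.5 (mutant) FPKM, with a log2 fold change of 0.044 (-0.17 to 0.26). The estimate for *Ndn* lay above the upper bound of both intervals, although its own interval overlapped both. *Magel2* was near the floor of the test, with 0.742 and 0.875 FPKM in the groups and a log2 fold change of 0.15 (-0.14 to 0.43). *Snrpn*, which encodes a protein of the spliceosome, varied more among the libraries labelled WT (12, 5.62 and 10.8) than among the mutants (8.42, 8.9, 9.29 and 7.38), and its log2 fold change was -0.085 (-0.60 to 0.43). *Ube3a*, the maternally expressed ubiquitin ligase of the domain, had 75.9, 88.6 and 81.5 (WT) and 82.8, 90.9, 84.9 and 88 (mutant) FPKM, with a log2 fold change of 0.082 (-0.076 to 0.24).

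Promoters of the members are shown for the genes with an unadjusted p under 0.05 that have an entry (*Ndn*, *Commd1* and *Airn*), and for *Mkrn3* and *Meg3*, which hold the letters of a GLIS motif. A promoter here is the window from 250 bases before to 50 bases after a start site in RefSeq (build GRCm38.p6, given 5′ to 3′ on the gene's strand), and 34 of the 40 members matched, with 53 windows. Capitals mark TGGGGGGT, the core of the published GLIS binding motif, or TGCCGC, the motif of ZFP57, the zinc finger protein that protects methylated imprints. Both strands were searched, so a capital run may be the reverse complement (GCGGCA), and 2 overlapping matches in the lower *Meg3* window form 1 run.
Ndn, chr7:62348027-62348326, plus strand: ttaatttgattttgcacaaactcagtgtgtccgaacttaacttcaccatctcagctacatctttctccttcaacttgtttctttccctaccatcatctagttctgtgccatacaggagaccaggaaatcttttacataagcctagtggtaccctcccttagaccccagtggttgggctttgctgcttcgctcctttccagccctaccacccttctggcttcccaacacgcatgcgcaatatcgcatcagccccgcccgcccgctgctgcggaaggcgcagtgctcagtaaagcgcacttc
Mkrn3, chr7:62420104-62420403, minus strand: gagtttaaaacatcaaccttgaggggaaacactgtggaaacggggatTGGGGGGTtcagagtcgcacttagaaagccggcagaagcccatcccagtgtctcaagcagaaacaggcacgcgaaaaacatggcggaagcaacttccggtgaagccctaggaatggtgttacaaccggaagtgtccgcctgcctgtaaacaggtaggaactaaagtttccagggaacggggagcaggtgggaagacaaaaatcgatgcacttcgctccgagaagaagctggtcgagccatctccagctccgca
Commd1, chr11:22982235-22982534, minus strand: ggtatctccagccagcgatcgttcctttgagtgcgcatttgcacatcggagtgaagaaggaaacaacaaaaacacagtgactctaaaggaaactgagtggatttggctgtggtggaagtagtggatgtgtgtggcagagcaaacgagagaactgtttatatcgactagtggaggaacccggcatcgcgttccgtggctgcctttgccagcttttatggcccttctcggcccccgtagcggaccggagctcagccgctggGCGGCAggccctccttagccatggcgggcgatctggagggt
Airn, chr17:12741061-12741360, plus strand: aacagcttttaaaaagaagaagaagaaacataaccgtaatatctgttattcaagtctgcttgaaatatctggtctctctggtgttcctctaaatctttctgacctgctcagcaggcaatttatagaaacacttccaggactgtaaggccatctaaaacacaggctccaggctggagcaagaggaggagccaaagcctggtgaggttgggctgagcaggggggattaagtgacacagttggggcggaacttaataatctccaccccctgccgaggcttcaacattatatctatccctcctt
Meg3, chr12:109540746-109541045, plus strand: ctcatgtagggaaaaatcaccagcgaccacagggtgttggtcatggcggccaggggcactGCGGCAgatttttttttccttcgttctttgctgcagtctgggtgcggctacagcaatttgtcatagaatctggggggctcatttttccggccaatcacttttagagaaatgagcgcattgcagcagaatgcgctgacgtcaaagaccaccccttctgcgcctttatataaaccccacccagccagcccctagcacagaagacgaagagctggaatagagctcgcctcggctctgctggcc
Meg3, chr12:109545148-109545447, plus strand: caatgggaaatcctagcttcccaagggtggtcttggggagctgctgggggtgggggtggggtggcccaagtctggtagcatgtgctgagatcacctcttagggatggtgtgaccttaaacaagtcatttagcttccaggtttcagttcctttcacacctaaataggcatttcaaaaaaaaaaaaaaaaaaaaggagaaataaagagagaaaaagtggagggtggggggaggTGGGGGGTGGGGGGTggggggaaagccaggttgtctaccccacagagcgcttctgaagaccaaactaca
The windows of *Ndn* and *Airn* held neither run of letters. For *Commd1* only the window with a match is printed, and its other window (chr11:22972817-22973116, minus strand) held neither run. The GLIS letters were found in 5 of the 53 member windows (9.43%, in *Gnas*, *Igf2*, *Meg3*, *Mkrn3* and *Ppp1r9a*) and in 1.53% of all 32851 windows. The ZFP57 letters were found in 12 of 53 (22.6%, in 11 members) and in 11.6% of all windows. Member windows had a median of 13 CpG dinucleotides and all windows a median of 7. None of the 5 genes with the GLIS letters was past the adjusted threshold with 7 libraries or without the library labelled WT replicate 3. A match is a run of letters and not a bound site.

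*Sgce* and *Peg10* start 102 bases apart on opposite strands of chromosome 6 and are both paternally expressed. *Sgce* (chr6:4674350-4747204, minus strand) encodes epsilon-sarcoglycan, a membrane protein. *Sgce* measured 31.1, 36.1 and 35.2 FPKM in the libraries labelled WT and 44.6, 39.6, 39.9 and 41.6 in the mutant libraries, so that the groups did not overlap. The fold change was 1.21, with a log2 value of 0.28 (95% interval 0.11 to 0.45), an adjusted p of 0.18 from limma and an exact permutation p of 0.0286. Without the library labelled WT replicate 3 the log2 fold change was 0.30 (adjusted p = 0.0844, limma). *Peg10* (chr6:4747306-4760516, plus strand), a gene derived from a retrotransposon that the placenta needs, had 17, 10.1 and 15.3 (WT) and 14.1, 13.8, 12.8 and 15.1 (mutant) FPKM. Its log2 fold change was 0.012 (-0.35 to 0.37), and its WT values scattered more than its mutant values. The maternally expressed neighbours were *Ppp1r9a*, which encodes the actin-binding protein neurabin, and *Asb4*, which encodes a part of a ubiquitin ligase. *Ppp1r9a* had 11.3, 10.7 and 11.6 FPKM in the libraries labelled WT and 11.6, 12.7, 12.2 and 11.9 in the mutant libraries. Its groups did not overlap, but the highest WT value and the lowest mutant value were almost equal, and the log2 fold change was 0.10 (-0.045 to 0.25, adjusted p = 0.443 from limma). *Asb4* had 16.1, 18.1 and 26.3 (WT) and 24.2, 23.5, 19.2 and 19.3 (mutant) FPKM, and its log2 fold change of 0.12 (-0.26 to 0.49) became 0.32 without the library labelled WT replicate 3, where its value was highest.

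**Figure D3:**
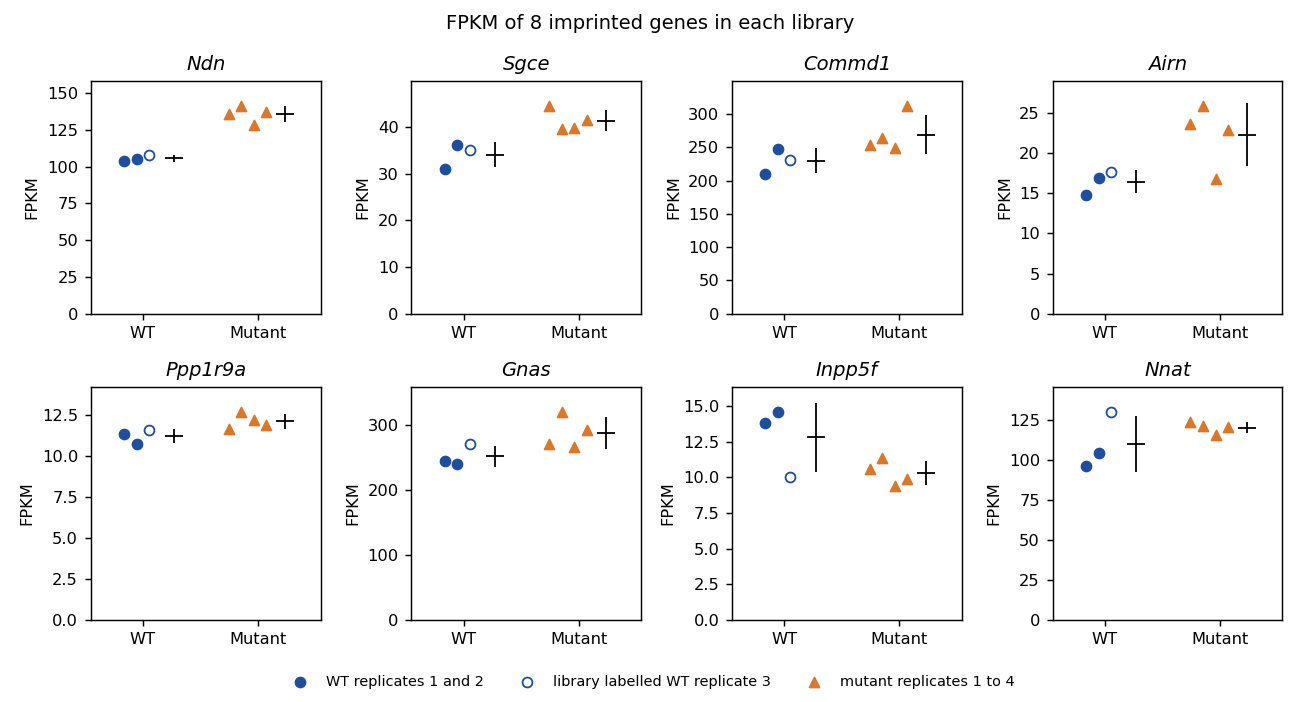
FPKM of 8 imprinted genes in each library, on axes that start at 0, with the mean and SD of each group beside the points (n = 3 and 4). Filled circles are WT replicates 1 and 2, open circles the library labelled WT replicate 3, and triangles the mutant libraries. All triangles lie above all circles for *Ndn*, *Sgce*, *Commd1* and *Ppp1r9a*, and the open circle lies among the triangles for *Inpp5f*.

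*Airn* and *Igf2r* overlap on chromosome 17 and are expressed from opposite parental chromosomes. *Airn* (chr17:12741311-12859884, plus strand) is a long non-coding RNA whose transcription silences *Igf2r*, the receptor that binds IGF2 and takes it to the lysosome, on the paternal chromosome. *Airn* FPKM was 14.8, 16.9 and 17.7 in the libraries labelled WT and 23.6, 25.9, 16.8 and 22.9 in the mutant libraries. Mutant replicate 3 lay within the WT range and the other 3 mutant values lay above it. The log2 fold change of 0.41 (95% interval 0.092 to 0.73) was the highest of the 36 members, with an adjusted p of 0.214 from limma and an exact permutation p of 0.114. *Igf2r* (chr17:12682406-12769706, minus strand) had 101, 70.6 and 82.5 (WT) and 94, 93.8, 78.6 and 72.7 (mutant) FPKM, and its log2 fold change was 0.0093 (-0.30 to 0.32). The libraries were not stranded, so reads from the stretch that both genes share cannot be assigned to one of them. *Slc22a3*, a cation transporter of the same domain, had 0.141 and 0.162 FPKM and was not tested.

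*Commd1*, a gene of copper metabolism and protein sorting, holds the paternally expressed splicing gene *Zrsr1* within an intron, on the opposite strand. *Commd1* (chr11:22899728-22982284, minus strand) had 209.8, 248 and 231 FPKM in the libraries labelled WT and 253, 264, 248 and 312 in the mutant libraries. The groups did not overlap, but WT replicate 2 and mutant replicate 3 differed by little. The log2 fold change was 0.23 (0.0013 to 0.45), with an adjusted p of 0.292 from limma and an exact permutation p of 0.0571. *Zrsr1* had 3.54, 3.23 and 2.28 (WT) and 3.21, 2.39, 2.45 and 2.62 (mutant) FPKM, with a log2 fold change of -0.14 (-0.49 to 0.21) that became -0.30 without the library labelled WT replicate 3.

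The growth factor gene *Igf2* and its neighbour *H19*, which share enhancers and are expressed from opposite chromosomes, had log2 fold changes near 0. *Igf2* (chr7:142650768-142661035, minus strand) had 95.3, 84.7 and 108 FPKM in the libraries labelled WT and 91.3, 101, 85 and 112 in the mutant libraries, and its log2 fold change was 0.02 (-0.24 to 0.28). *H19* (chr7:142575530-142578146, minus strand) had 1672, 1423 and 1859.6 (WT) and 1559, 1628, 1516 and 1705 (mutant) FPKM, and its log2 fold change was -0.037 (-0.30 to 0.23). For both genes the groups overlapped. The difference of log2(FPKM + 0.5) between *H19* and *Igf2* was 4.13, 4.06 and 4.1 in the libraries labelled WT and 4.09, 4.01, 4.15 and 3.92 in the mutant libraries. These 7 values spanned 0.23, the narrowest span among the 13 pairs of neighbours examined.

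In the *Kcnq1ot1* domain on the same chromosome, *Cdkn1c* encodes a cyclin-dependent kinase inhibitor and *Kcnq1ot1* is the paternally expressed RNA that silences its neighbours. *Cdkn1c* had 107, 86.3 and 129 (WT) and 109, 119.6, 108 and 134 (mutant) FPKM, with a log2 fold change of 0.14 (-0.17 to 0.45). WT replicate 2 was lowest, and without the library labelled WT replicate 3 the value was 0.28. *Kcnq1ot1* had 1.79, 1.47 and 1.71 (WT) and 1.46, 1.91, 1.43 and 1.52 (mutant) FPKM, with a log2 fold change of -0.055 (-0.33 to 0.22). *Ascl2*, a trophoblast transcription factor, had 1.77, 0.545 and 1.08 (WT) and 0.478, 0.697, 1.06 and 0.6 (mutant) FPKM, and its log2 fold change of -0.38 had the widest interval of the set (-0.99 to 0.23). *Phlda2*, which restrains placental growth, was scattered from 0 to 0.873 FPKM over the libraries and was not tested.

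The *Dlk1*-*Meg3* domain on chromosome 12 holds *Dlk1*, a paternally expressed membrane protein related to Notch ligands, and 3 maternally expressed non-coding RNAs. Of these, *Rian* carries small nucleolar RNAs and *Mirg* carries microRNAs. *Dlk1* had 11.4, 9.51 and 11.1 FPKM in the libraries labelled WT and 13.5, 17, 9.54 and 9.4 in the mutant libraries. Mutant replicates 1 and 2 were above all WT values and mutant replicates 3 and 4 were not, and the log2 fold change was 0.17 (-0.28 to 0.61). *Meg3* had 18.5, 15.1 and 20 (WT) and 17.9, 23.7, 13.6 and 16.6 (mutant) FPKM, *Rian* had 109, 111 and 124 (WT) and 118, 164, 113 and 128 (mutant) FPKM, and *Mirg* had 13.7, 13.8 and 15.9 (WT) and 16.8, 20.1, 12.5 and 18.3 (mutant) FPKM. Mutant replicate 2 was the highest of the 7 libraries for all 4 genes, on both the maternal and the paternal side. The log2 fold changes were -0.0083 (-0.40 to 0.39) for *Meg3*, 0.17 (-0.12 to 0.46) for *Rian* and 0.20 (-0.14 to 0.54) for *Mirg*.

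The *Peg3* domain at the proximal end of chromosome 7 holds *Peg3*, a zinc finger gene with a role in maternal behaviour, *Usp29*, a ubiquitin protease gene that starts 164 bases from it on the other strand, and the maternally expressed zinc finger gene *Zim1*. *Peg3* had 117, 90.8 and 117 FPKM in the libraries labelled WT and 103, 108, 100.1 and 87.5 in the mutant libraries, with a log2 fold change of -0.11 (-0.36 to 0.14). *Usp29* had 2.78, 1.36 and 1.63 (WT) and 1.82, 1.73, 1.48 and 1.24 (mutant) FPKM (-0.19, -0.66 to 0.27). *Zim1* had 14.2, 13.4 and 13.2 (WT) and 13.4, 19.2, 12.4 and 12.6 (mutant) FPKM (0.058, -0.27 to 0.39), and mutant replicate 2 stood apart from the other 6 libraries.

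Differences between neighbouring members within a library overlapped between the groups when all 7 libraries were used. For 13 pairs, 11 of a maternally and a paternally expressed gene and 2 of paternally expressed genes that start back to back, the difference of log2(FPKM + 0.5) was taken in each library. The groups were then apart in 0 of the 13 pairs. They were apart in 2 pairs without the library labelled WT replicate 3, *Commd1* minus *Zrsr1* and *Cdkn1c* minus *Kcnq1ot1*, both higher in the mutants. No share over other pairs of genes was taken. Among single genes tested, groups were also apart in the higher direction more often without that library, at 15.6% against 7.31%. The mean difference between the groups was largest for *Igf2r* minus *Airn*, which was 2.73, 2.03 and 2.19 in the libraries labelled WT and 1.97, 1.84, 2.2 and 1.64 in the mutant libraries. For *Cdkn1c* minus *Kcnq1ot1* the values were 5.56, 5.46 and 5.87 (WT) and 5.8, 5.64, 5.81 and 6.06 (mutant). For *Commd1* minus *Zrsr1* they were 5.7, 6.06 and 6.38 (WT) and 6.09, 6.51, 6.4 and 6.64 (mutant), and for *Sgce* minus *Peg10* they were 0.85, 1.79 and 1.17 (WT) and 1.63, 1.49, 1.6 and 1.43 (mutant). In the last pair all mutant values fell inside the wide WT range, with an SD of 0.091 (n = 4) against 0.48 (n = 3).

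**Figure D4:**
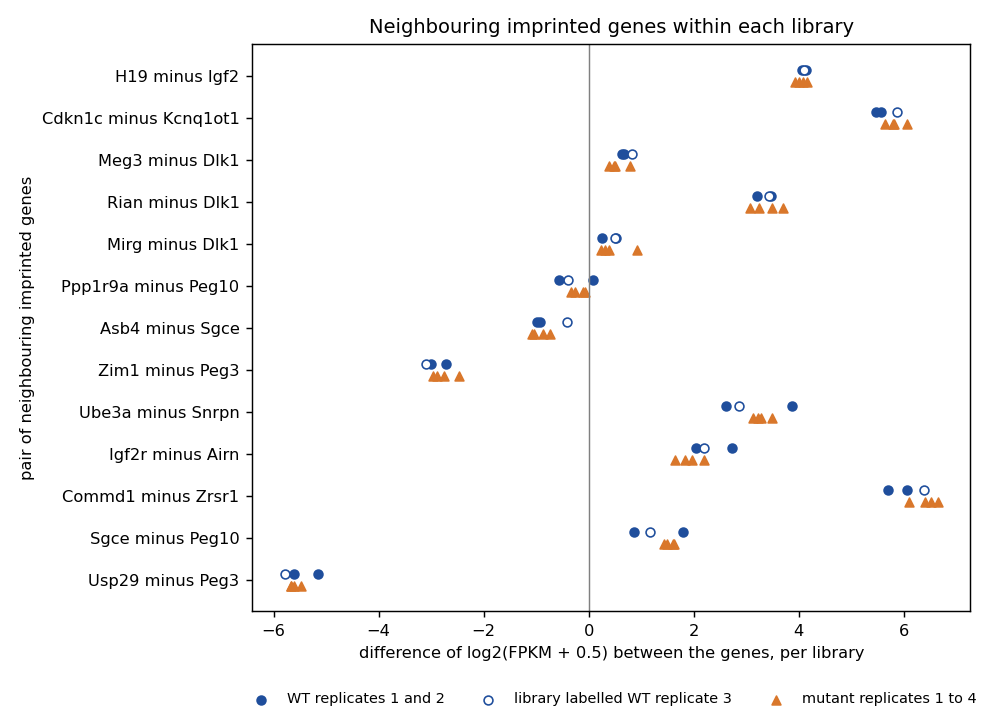
Difference of log2(FPKM + 0.5) between 2 neighbouring imprinted genes within each library, for 13 pairs. Filled circles are WT replicates 1 and 2, open circles the library labelled WT replicate 3, and triangles the 4 mutant libraries. With all 7 libraries, circles and triangles overlap in every pair, and *H19* minus *Igf2* spans the least.

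Members outside these domains were genes of signalling, metabolism and extracellular matrix. *Gnas*, the stimulatory G protein subunit through which luteinizing hormone signals in Leydig cells, had 244, 239.6 and 270.3 FPKM in the libraries labelled WT and 269.6, 319, 266 and 291 in the mutant libraries. The library labelled WT replicate 3 overlapped the mutants, and the log2 fold change was 0.19 (-0.0067 to 0.38) with it and 0.24 without it (adjusted p = 0.159, limma). *Mest*, a member of the hydrolase fold family, had 211, 187 and 252 (WT) and 233, 237, 213 and 215 (mutant) FPKM (0.058, -0.18 to 0.29). *Grb10*, an adaptor that dampens signals of the insulin and IGF receptors, had 153, 142 and 161 (WT) and 154, 166, 150.2 and 155 (mutant) FPKM, with one of the narrowest intervals (0.04, -0.11 to 0.19). *Nnat*, a small membrane protein gene within an intron of *Blcap*, had 96, 104 and 129.7 (WT) and 124, 121, 116 and 120.2 (mutant) FPKM. Its library labelled WT replicate 3 lay above all mutants and the other WT values below them, so the log2 fold change was 0.14 (-0.087 to 0.36) with that library and 0.26 without it (adjusted p = 0.0617, limma).

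*Dcn* encodes decorin, a proteoglycan of connective tissue. *Dcn* measured 145, 246 and 150.1 FPKM in the libraries labelled WT and 213, 237, 210.4 and 253 in the mutant libraries. WT replicate 2 stood with the mutants and the other WT values were lower, which gave a log2 fold change of 0.38 (-0.022 to 0.78, adjusted p = 0.317 from limma). The value was 0.25 without WT replicate 1 and 0.62 without WT replicate 2. The interstitial cell markers, of which 8 of 8 were higher, had the same direction, and their part in the value of *Dcn* was not tested.

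*Inpp5f*, a phosphoinositide phosphatase gene, had the lowest log2 fold change of the members with a mean above 2 FPKM. *Inpp5f* measured 13.8, 14.6 and 10 FPKM in the libraries labelled WT and 10.6, 11.4, 9.43 and 9.88 in the mutant libraries. WT replicates 1 and 2 were above all mutants, whereas the library labelled WT replicate 3 lay among them. The log2 fold change was -0.28 (-0.58 to 0.013, adjusted p = 0.311 from limma) with all libraries, and -0.44 with an adjusted p of 0.0396 from limma without the library labelled WT replicate 3. Adjusted p-values over all alternatives ranged from 0.0396 to 0.586. The germ cell markers also placed that library among the mutants, with a mean log2 level of 5.43 and 5.35 in WT replicates 1 and 2, 4.14 in the library labelled WT replicate 3, and 4.18, 3.89, 3.98 and 3.76 in the mutants. Their part in the value of *Inpp5f* was not tested.

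The remaining tested members had intervals that included 0. The amino acid transporter gene *Slc38a4* had 43.8, 49 and 53.1 (WT) and 56.6, 55.1, 49.3 and 52.1 (mutant) FPKM (0.13, -0.052 to 0.32). *Impact*, a regulator of the translational stress response, had 29.8, 30.7 and 32.5 (WT) and 35.4, 34.8, 33.4 and 32.4 (mutant) FPKM (0.13, -0.0082 to 0.27), and its groups overlapped only through the library labelled WT replicate 3. *Plagl1*, a zinc finger transcription factor gene, had 14.1 and 14.8 FPKM (0.075, -0.14 to 0.29). The zinc finger gene *Zdbf2* had 5.6 and 6.41 FPKM (0.17, -0.16 to 0.51). The nucleosome assembly family gene *Nap1l5* (0.392 and 0.324 FPKM) and the Ras exchange factor gene *Rasgrf1* (0.0709 and 0.0167 FPKM) were too low to test. All 3 WT values of *Rasgrf1* were above the 4 mutant values, and the highest of them was 0.107 FPKM.

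Spread within groups differed among the members. The median pooled SD on the log2 scale was 0.17 for the 36 members and 0.13 for all genes tested, and over the members it reached from 0.049 for *Ndn* and 0.053 for *Ppp1r9a* to 0.37 for *Snrpn* and 0.42 for *Ascl2*. Of the 10 most abundant members, *Dcn* varied most (0.29) and *Ndn* least. For *Grb10*, *Mest*, *Igf2*, *Ube3a*, *Peg12*, *Mkrn3*, *Plagl1*, *Impact* and *Ppp1r9a*, the 95% interval of the log2 fold change lay between -0.3 and 0.3.

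Reads in LINE, SINE and LTR repeats inside gene bodies gave a second readout, which in these libraries without poly-A selection reaches introns and long non-coding RNAs. Repeat loci with reads lay inside the bodies of 30 members, and 27 had a mean of at least 10 reads. Values are CPM, scaled to all reads in repeats inside gene bodies, and were tested with edgeR. None of the 27 was past the adjusted threshold, against 0% of 12884 gene bodies in the higher and 0.00776% (1 gene body) in the lower direction. DESeq2 called none of the 27 and 49 gene bodies. At an unadjusted p under 0.05 there were 3 higher members (*Mirg*, *Nnat* and *Rian*), against 6.53% of gene bodies, and none lower, against 5.93%. Groups did not overlap for *Rian* among higher members, against 5.19% of gene bodies, and for *Usp29* among lower members, against 5.29%. Without the library labelled WT replicate 3 there were again none past the adjusted threshold, against 0.194% of gene bodies higher and 0.947% lower. The median log2 fold change was 0.034 for the 27 members and -0.00061 for all gene bodies. Both readouts come from the same libraries and partly from the same reads, so neither is independent support for the other. *Dlk1*, *Peg10* and *Slc22a3* had repeat loci but under 10 reads on average.

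Among the imprinted genes *Rian* had the most repeat reads. *Rian* measured 1594, 1678 and 1808 CPM in the libraries labelled WT and 1822, 2756, 1862 and 1945 in the mutant libraries, from 36 loci and a mean of 6287 reads per library. The groups did not overlap, although mutant replicate 2 stood far above the other 3. The log2 fold change was 0.31 (adjusted p = 0.375, edgeR), and 0.21 from loci outside annotated exons. *Mirg* had 121, 166 and 176 (WT) and 215, 235, 170.3 and 179 (mutant) CPM, with a log2 fold change of 0.37 (adjusted p = 0.3, edgeR). Both are maternally expressed RNAs of the *Dlk1*-*Meg3* domain, and *Meg3* at its head had 140.1, 119 and 139 (WT) and 154, 189.9, 118 and 139 (mutant) CPM (0.18, adjusted p = 0.641 from edgeR). *Nnat* had 186, 226 and 256 (WT) and 259, 262, 278 and 253 (mutant) CPM from 1 locus in an exon, which also lies within *Blcap* (0.24, adjusted p = 0.366 from edgeR).

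For *Airn* and *Sgce* the repeat reads did not repeat the difference seen in FPKM. *Airn* had 436, 357 and 393 CPM in the libraries labelled WT and 354, 372, 294 and 405 in the mutant libraries, so that its log2 fold change was -0.15 (adjusted p = 0.616, edgeR) against 0.41 for FPKM. Of its repeat reads, 79.6% fell outside annotated exons and 26.1% in loci shared with *Igf2r* or *Mas1*. *Igf2r* had 192, 158 and 177 (WT) and 184, 191, 151 and 166 (mutant) CPM (-0.029). *Sgce* had 44.5, 38.6 and 41 (WT) and 43.3, 46.8, 29.7 and 47.9 (mutant) CPM, a log2 fold change of 0.017 against 0.28 for FPKM, with 90% of the reads outside exons. *Commd1* had 249, 352 and 293 (WT) and 332, 336, 316 and 394 (mutant) CPM (0.21), but the sign turned to -0.24 in the loci outside exons, which held 14.8% of its reads. *Kcnq1ot1* had 633, 667 and 717 (WT) and 661, 805, 672 and 699 (mutant) CPM (0.077), all from loci that also lie within *Kcnq1*.

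The lowest values in this readout were those of *Inpp5f* and *Usp29*. *Usp29* had 82.4, 81.7 and 80.6 CPM in the libraries labelled WT and 79.6, 71.1, 67 and 71.5 in the mutant libraries, so the groups were apart by 1 CPM, and the log2 fold change of -0.17 became 0.014 in loci outside exons. *Inpp5f* had 36.5, 39.6 and 34.6 (WT) and 29.9, 30.6, 38 and 31.2 (mutant) CPM (-0.18, adjusted p = 0.605 from edgeR). The library labelled WT replicate 3 was below the other WT values here too, and mutant replicate 3 lay between them. *Grb10* and *Mest*, the members with most repeat reads after *Rian*, had log2 fold changes of 0.034 and 0.14, but 91% of the *Mest* reads lay in loci shared with *Copg2* or *Mir335* and cannot be assigned to *Mest*. Loci shared with other genes also held 90.3% of the reads of *Snrpn*, 59.1% of those of *Gnas*, 51.1% of those of *Igf2r* and all of those of *Zrsr1*. Members not given above ranged from -0.11 for *Gnas* to 0.61 for *Rasgrf1*, which had a mean of 13.3 reads.

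**Figure D5:**
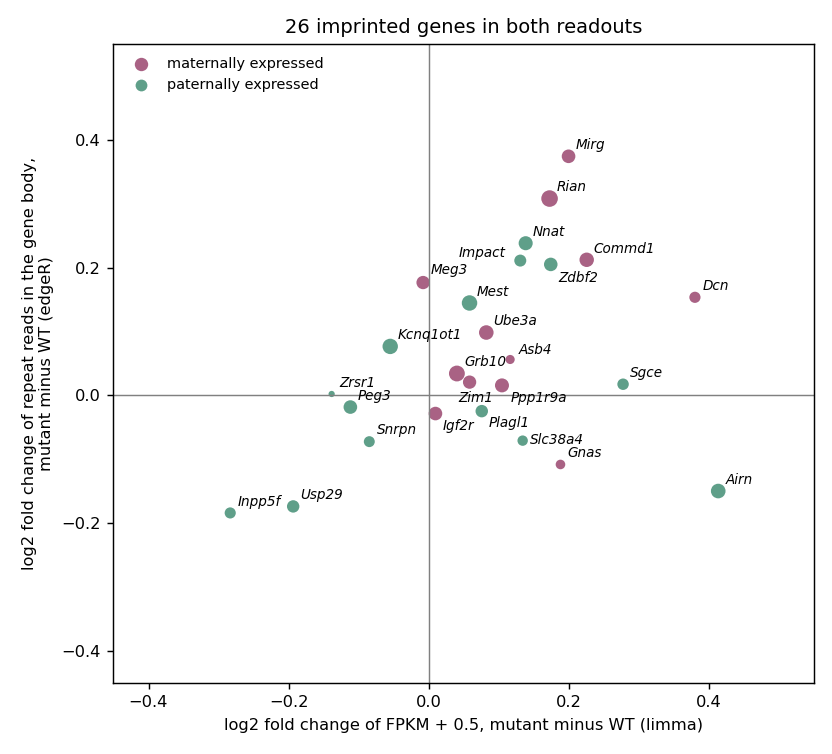
Log2 fold change, mutant minus WT, of repeat reads in the gene body (vertical axis, edgeR) against that of FPKM + 0.5 (horizontal axis, limma) for 26 imprinted genes, with larger points for more repeat reads. *Mirg* and *Rian* are highest on the vertical axis, and *Airn* is farthest right but below 0.

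Further genes known to be imprinted were described from a list of 41 names, of which 40 were in the table and 31 were tested. Values were higher in the mutant group for 16 and lower for 15, and the median log2 fold change was 0.0022. Past the adjusted threshold of limma there were 0 of them, and at an unadjusted p under 0.05 there were 4 higher (*Cd81*, *Dhcr7*, *Pon3* and *Tssc4*), against 8.21% of all genes tested, and 1 lower (*Blcap*), against 8.79%. Without the library labelled WT replicate 3, 1 of the 31 was past the adjusted threshold, in the lower direction, against 3.99% of all genes tested. This was *Th*, the rate-limiting enzyme of catecholamine synthesis (-0.91, adjusted p = 0.0343, limma), and it is named after its values were seen. *Th* was near the floor of the test, with 1.49, 1 and 0.186 FPKM in the libraries labelled WT and 0.356, 0.312, 0.5 and 0.539 in the mutant libraries. The library left out had the lowest of these values, and with it the log2 fold change was -0.46 (adjusted p = 0.499, limma). *Pon3* and *Tssc4*, whose groups overlapped, are named after their values were seen. *Cd81*, a membrane tetraspanin, had 355, 466 and 464 FPKM in the libraries labelled WT and 516, 527, 498 and 557 in the mutant libraries (0.30, adjusted p = 0.228 from limma). *Dhcr7*, an enzyme of cholesterol synthesis, had means of 10.4 and 12.2 FPKM (0.23, adjusted p = 0.219 from limma). *Blcap*, the host gene of *Nnat*, had 18, 17.7 and 17.9 FPKM in the libraries labelled WT and 15.8, 15.6, 15.9 and 15.5 in the mutant libraries, with very little spread in either group (-0.18, adjusted p = 0.194 from limma). Reads of *Blcap* and *Nnat* from their shared stretch cannot be told apart.

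The partners of IGF signalling, through which *Igf2*, *Igf2r* and *Grb10* act, were described from a list of 19 genes. Of 17 tested, 12 were higher and 5 lower, and the median log2 fold change was 0.059. The 4 with an unadjusted p under 0.05, all higher, against 8.21% of all genes tested, were the IGF-binding protein genes *Igfbp2*, *Igfbp3*, *Igfbp6* and *Igfbp7*, of which *Igfbp2* and *Igfbp6* had overlapping groups and are named after their values were seen. *Igfbp7*, a secreted binding protein, had 71.1, 73.8 and 85.2 FPKM in the libraries labelled WT and 110.2, 96.4, 93.9 and 88.1 in the mutant libraries, with a log2 fold change of 0.34 (adjusted p = 0.182, limma) that became 0.42 without the library labelled WT replicate 3 (adjusted p = 0.0471, limma). In that fit *Igfbp7* was the only 1 of the 17 past the adjusted threshold, against 1.16% of all genes tested in the higher direction. *Igfbp3*, the main carrier of IGFs in blood, had 101, 101 and 91.7 (WT) and 123, 123, 119.8 and 101 (mutant) FPKM (0.25, adjusted p = 0.21 from limma).

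Genes that keep, erase or reset imprints formed the last list, with 17 genes of which 16 were tested. Values were lower in the mutant group for 14 and higher for 2, and the median log2 fold change was -0.14. At an unadjusted p under 0.05 there were 3 lower (*Hells*, *Setdb1* and *Kdm1b*), against 8.79% of all genes tested, and 1 higher (*Uhrf1*), against 8.21%. *Hells*, a chromatin remodeller needed for DNA methylation, had 112, 87.6 and 102 FPKM in the libraries labelled WT and 68.3, 75.3, 83.3 and 76.7 in the mutant libraries (-0.40, adjusted p = 0.169 from limma). *Setdb1*, a histone methyltransferase recruited with ZFP57, had 49, 43 and 41 (WT) and 38.3, 38.4, 36.5 and 36.9 (mutant) FPKM (-0.23, adjusted p = 0.194 from limma). *Uhrf1*, which guides the maintenance methyltransferase, had 45, 39.2 and 44.6 (WT) and 54.6, 52.4, 47.9 and 45.5 (mutant) FPKM (0.22, adjusted p = 0.244 from limma). With 7 libraries 0 of the 16 were past the adjusted threshold. Without the library labelled WT replicate 3 only *Kdm1b* among the 16 was (log2 fold change -0.50, adjusted p = 0.0245, limma), against 3.99% of all genes tested in the lower direction. This histone demethylase gene is named after its values were seen. *Dppa3* stood both on this list and among the germ cell markers, so its lower value is counted in both. Several genes of this list are expressed in germ cells, whose markers had lower values in the same libraries, and the part of those cells was not tested.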

How the data were processed

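The members, gene lists and alternatives were chosen with earlier results of these data known. Total RNA of 7 libraries (3 WT, 4 mutant) was depleted of rRNA by the authors and made into unstranded libraries without poly-A selection. Reads were mapped to mm10 with TopHat2 2.0.12, with up to 10 hits per read. The deposited FPKM values per RefSeq gene were made by the authors. The methods of the study name Cuffquant and Cuffnorm for FPKM, whereas the processing notes list Cuffnorm beside Cuffdiff 2.1.1 without their roles, so which of them scaled the libraries to each other is not certain. The deposited counts of uniquely mapped reads per RepeatMasker LINE, SINE and LTR element were made by the authors with HTSeq and hold no normalization. Both tables keep replicates apart, and value columns were matched to the labels by the names in the header. That header lacks the tab between WT replicate 3 and mutant replicate 1, so its 7 names were set over the 7 value columns in order.

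From the FPKM table, log2(FPKM + 0.5) was taken for the 13988 genes whose mean reached 0.5 FPKM and tested with limma 3.58.1 (trended variance, two-sided, Benjamini-Hochberg adjustment over all genes tested, threshold 0.05, R 4.3.3). Single values were tested with the two-sided exact permutation test over libraries, whose smallest p is 0.0286 with 3 against 4 and 0.0667 with 2 against 4. The study used Cuffdiff, which needs mapped reads and was not run. From the repeat table, counts of the loci wholly inside each gene body were summed, and the 12884 gene bodies with a mean of at least 10 reads entered edgeR 4.0.16 (TMM scaling, quasi-likelihood test). DESeq2 1.42.0 was an alternative. Both were tested on simulated data in which 200 features had a log2 change of 1.5. In these data limma recovered 97% of them among 13988 genes, and edgeR 91% among 12884 gene bodies. Of the unchanged features, limma called 10 and edgeR 6. All members had log2 fold changes smaller than 1.5, so these rates do not cover changes of their size. The tables hold no allele information, and overlapping genes cannot be separated without strand. The members named with values in each library were those with an unadjusted p under 0.05 or groups that did not overlap, the 10 with the highest mean FPKM, and both sides of each domain. *Inpp5f*, *Impact* and *Slc38a4* fall outside this rule and were chosen after their values were seen. From the other lists, genes that met both of the first criteria were named. Alternatives were pseudocounts of 0.1 and 1, filters (none, at least 2 FPKM, at least 50 reads), quantile normalization, median centring, no trend, other scalings of the counts, loci outside annotated exons, a replicate block and leaving out each library. Cells were not counted, and intervals and tests cover these libraries only.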

Additional observations from a re-analysis of the deposited data

Results flagged for a closer look

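Among the 4 mutant libraries, the gap between the highest or lowest value and its neighbour, divided by the whole range, was compared with the 95% critical value of Dixon for each imprinted gene with a test. Of 63 groups examined, 4 passed, and chance passes about 1 in 20 groups. *Zim1* in mutant replicate 2 had 19.23 FPKM against 13.4, 19.2, 12.4 and 12.6 in the 4 libraries, and the repeat reads in its body gave 179.2 CPM there against 129, 179, 130.3 and 125 in the 4 libraries. *Rian* in mutant replicate 2 had 2756 CPM of repeat reads, far above the other 3 libraries. These 3 values came from 1 library, mutant replicate 2, in which 14 of 36 members had their highest FPKM. *Inpp5f* in mutant replicate 3 had 37.99 CPM of repeat reads, above the other 3 mutant libraries, whereas its FPKM there was the lowest of the 4.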

How the results depend on the processing

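Of 536 log2 fold changes of 36 members under the FPKM alternatives, 502 kept their direction and side of the threshold, 2 passed the threshold (*Ndn* and *Inpp5f*, each without WT replicate 3) and 32 turned sign, and 22 members did not turn under the alternatives run. For repeat reads, 148 of 152 values of 11 members were kept. In most values that turned sign the log2 fold change was close to 0, and the cause was not tested. Genes past the adjusted threshold numbered 4 with no filter and 3 with quantile normalization, in place of 1. Gene bodies past it numbered 49 with DESeq2, 27 with loci outside exons and 53 with no filter, in place of 1. Quantile normalization gave -0.0020 for *Igf2*, 0.0127 for *Meg3*, -0.0197 for *Mest*, -0.0109 for *Igf2r* and -0.0093 for *Grb10*, and median centring gave 0.0038 for *Meg3*. Loci outside exons gave 0.0141 for *Usp29* and -0.2355 for *Commd1* in repeat reads.

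The labels do not say that the replicate numbers pair the libraries, and the main tests treated the libraries as unpaired. Deviations of libraries with the same number from their group means correlated at 0.20, -0.18 and 0.23 across genes, and libraries 1 and 3 of the WT group but not library 2 correlated best with their own number. So few correlations cannot decide whether the libraries are paired. A fit with the replicate number as a block, which leaves out mutant replicate 4 since its number has no partner, called 0 genes and 0 gene bodies and gave -0.0515 for *Igf2*, 0.0189 for *Meg3* and -0.0261 for *Peg10*.

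With single libraries left out, genes past the adjusted threshold ranged from 1 to 720 and gene bodies from 0 to 147, both highest without WT replicate 3. Genes with an unadjusted p under 0.05 ranged from 1573 to 3296 (2379 with all libraries). Of the 36 members, those with one ranged from 2 to 10 (4 with all libraries). There were 2 without WT replicate 1, against 1573 of 13988 genes tested. Without WT replicate 2 there were 9, against 2471 genes, and without WT replicate 3 there were 10, against 3296 genes. Members whose groups did not overlap ranged from 4 to 14. With all libraries there were 4, all higher, against 7.31% of all genes tested. The 14 without WT replicate 3 were 12 higher, against 15.6% of all genes tested, and 2 lower, against 17.1%. In repeat reads, members with an unadjusted p under 0.05 ranged from 0 to 4. With all libraries there were 3, all higher, against 6.53% of gene bodies. The log2 fold changes that turned sign ranged from -0.1398 to 0.0533 for *H19*, -0.0659 to 0.1057 for *Igf2*, -0.1476 to 0.1109 for *Meg3*, -0.2052 to 0.155 for *Peg10*, -0.0423 to 0.1721 for *Mest*, -0.4029 to 0.1108 for *Snrpn*, -0.0051 to 0.2817 for *Cdkn1c*, -0.1132 to 0.1424 for *Igf2r*, -0.0085 to 0.0811 for *Grb10*, -0.0045 to 0.1497 for *Plagl1*, -0.0843 to 0.1191 for *Zim1*, -0.3632 to 0.0464 for *Usp29*, -0.0261 to 0.3192 for *Asb4*, -0.0339 to 0.1342 for *Peg12* and -0.0203 to 0.0834 for *Grb10* in repeat reads.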
